A study of Drosophila melanogaster with 3 samples.

Results

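The genes described here are the central regulators of programmed cell death in Drosophila melanogaster, namely reaper (rpr, FBgn0011706), head involution defective (hid, FBgn0003997), grim (FBgn0015946), sickle (skl, FBgn0036786) and Diap1 (FBgn0260635). They are 5 of 13945 protein-coding genes, and they were taken by name. For each of them every peak summit in the gene or within 10 kb of it was collected, together with every summit in the intergenic space that separates hid, grim, rpr and skl on chromosome arm 3L. This gave 53 of the 8549 summits of the authors' reproducible peak list, called the IDR list here after the irreproducible discovery rate by which such lists are made.

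The measurements are chromatin immunoprecipitation with sequencing of E(spl)mβ, a basic helix-loop-helix repressor encoded by a Notch target gene of the Enhancer of split complex. The material was whole embryos of mixed sex, aged 0 to 24 h, of a single stable transgenic line of D. melanogaster in which E(spl)mβ carries GFP at its C terminus. Whether untagged E(spl)mβ was also present, and which promoter drives the tagged one, is not given in the sources used here. An antibody against GFP was used on 3 biological replicates, and these form 1 group, so no genotype, stage or treatment was compared. Expression of these genes was not measured, and embryos of all stages and cell types were processed together, so a summit cannot be assigned to dying or surviving cells. In every list the strongest peak lay nearest to E(spl)mbeta-HLH, the gene of the tagged protein. Read depth is unknown for these peak lists.

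The small proteins encoded by rpr, hid, grim and skl bind to Diap1, a ubiquitin ligase with baculoviral repeats that restrains the caspases Dronc and Drice. When they are made in a cell, this restraint is lifted and the caspases are activated. The 4 killer genes lie in 1 region, all transcribed from the minus strand, and the long, mostly non-coding stretches between them are known to hold regulatory DNA. The stretch between grim and rpr is known for its part in the death of abdominal neuroblasts, a decision in which Notch signalling takes part. The stretch upstream of rpr is known for a p53 response element used after ionising radiation.

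In the dm6 build, hid lies at chr3L:18167745-18185641, grim at chr3L:18302719-18304417, rpr at chr3L:18397535-18398435 and skl at chr3L:18438561-18439942. Each of these has 1 annotated transcription start site. Diap1, at chr3L:16038410-16051034, lies on the same arm and strand and has 5 annotated start sites. A summit is the position of highest enrichment within a peak, and its signal is the authors' enrichment value. Since signals scale differently in each list, they are compared here within a list, and between lists only by rank.

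The genomic sequence around 7 of the summits is given first, each from 100 bp before the summit to 100 bp after it, read from the RefSeq Release 6 assembly. The first 4 are shown because they were the strongest of their stretch or lay at the hid promoter, and the last 3 because they hold a site of the kind that E(spl) proteins are known to bind in vitro. Capitals mark matches, on either strand, to the E-box variant CACGTG, to its longer form GGCACGTG, to the related CACGCG and to the N-box CACNAG.
strongest summit, between hid and grim, chr3L:18212278-18212478, plus strand: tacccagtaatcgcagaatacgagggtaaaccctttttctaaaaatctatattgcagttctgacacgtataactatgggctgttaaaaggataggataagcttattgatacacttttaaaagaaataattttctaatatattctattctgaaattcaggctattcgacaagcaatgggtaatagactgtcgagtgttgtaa
hid promoter, chr3L:18185870-18186070, plus strand: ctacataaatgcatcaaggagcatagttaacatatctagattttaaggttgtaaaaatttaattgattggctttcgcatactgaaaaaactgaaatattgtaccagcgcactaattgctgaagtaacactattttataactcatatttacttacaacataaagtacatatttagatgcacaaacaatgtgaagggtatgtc
strongest Diap1 summit, chr3L:16046068-16046268, plus strand: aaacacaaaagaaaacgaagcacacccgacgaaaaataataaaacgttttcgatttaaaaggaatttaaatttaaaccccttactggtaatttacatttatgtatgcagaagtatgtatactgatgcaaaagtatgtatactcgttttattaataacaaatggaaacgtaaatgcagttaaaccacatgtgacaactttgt
strongest summit between grim and rpr, chr3L:18348644-18348844, plus strand: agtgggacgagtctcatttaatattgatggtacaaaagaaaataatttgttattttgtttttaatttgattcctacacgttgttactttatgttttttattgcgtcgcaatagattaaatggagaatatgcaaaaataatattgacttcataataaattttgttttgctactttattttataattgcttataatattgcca
hid intron, chr3L:18183357-18183557, plus strand: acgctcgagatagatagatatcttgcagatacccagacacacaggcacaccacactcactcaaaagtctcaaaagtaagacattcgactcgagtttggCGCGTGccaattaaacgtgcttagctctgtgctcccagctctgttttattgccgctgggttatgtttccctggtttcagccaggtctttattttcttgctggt
Diap1 promoter, start site 16046846, chr3L:16047213-16047413, plus strand: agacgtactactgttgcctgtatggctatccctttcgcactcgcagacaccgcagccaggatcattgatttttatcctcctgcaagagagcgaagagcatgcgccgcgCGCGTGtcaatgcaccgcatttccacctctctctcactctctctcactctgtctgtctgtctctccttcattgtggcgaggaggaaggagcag
near grim, chr3L:18296570-18296770, plus strand: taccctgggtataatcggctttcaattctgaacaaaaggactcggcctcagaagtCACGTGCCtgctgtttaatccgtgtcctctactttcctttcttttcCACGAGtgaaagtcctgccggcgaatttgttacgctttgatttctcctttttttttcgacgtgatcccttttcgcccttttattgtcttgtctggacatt

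hid, whose product is the longest of the killer proteins and localises to mitochondria, had a strong summit at its promoter. It lay at chr3L:18185970, 329 bp upstream of the start site, with a signal of 1835.8 and rank 689 of 8549 in the IDR list. The replicate signals there were 763.1, 452.0 and 624.8 in replicates 1, 2 and 3, which are ranks 770, 602 and 711 of their own lists. The 3 replicates thus placed this summit at much the same height. A summit of similar height lay 7393 bp upstream of hid, at chr3L:18193034, with signal 1898.8 and ranks 659, 688 and 652 in replicates 1, 2 and 3. A further summit fell in a hid intron, 2184 bp inside the transcript, with signal 758.6 and ranks 2477, 2122 and 4307. It is the hid intron window printed above, with a CACGCG site centred 0.5 bp from the summit.

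The other summits counted for hid were weaker and varied more. At chr3L:18188773, 3132 bp upstream of the start site, the signal was 530.0, and the ranks were 3811, 3712 and 7109 in replicates 1, 2 and 3. At chr3L:18162494 the signal was 460.6, with no matching summit in replicate 2, and this position is 28 bp inside the start of the neighbouring gene CG13699. In all, 5 IDR summits lay in hid or within 10 kb of it, against a median of 3 for the 346 protein-coding genes of 15 to 20 kb, of which 113 had 5 or more.

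The space between hid and grim held most of the summits of the region. It spans 117.1 kb and contained 31 IDR summits, which is 2.65 per 10 kb, against 0.704 per 10 kb on arm 3L as a whole. The pooled list, made by the authors from all 3 replicates, had 82 summits there. The strongest was at chr3L:18212378, outside every annotated gene and 26737 bp upstream of hid, with signal 4599.4 and rank 89 of 8549. Its signals were 2290.4, 1046.4 and 1244.6 in replicates 1, 2 and 3, at ranks 69, 87 and 176. No other summit of these genes came near it, the next being that at 7393 bp upstream of hid.

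**Figure D1:**
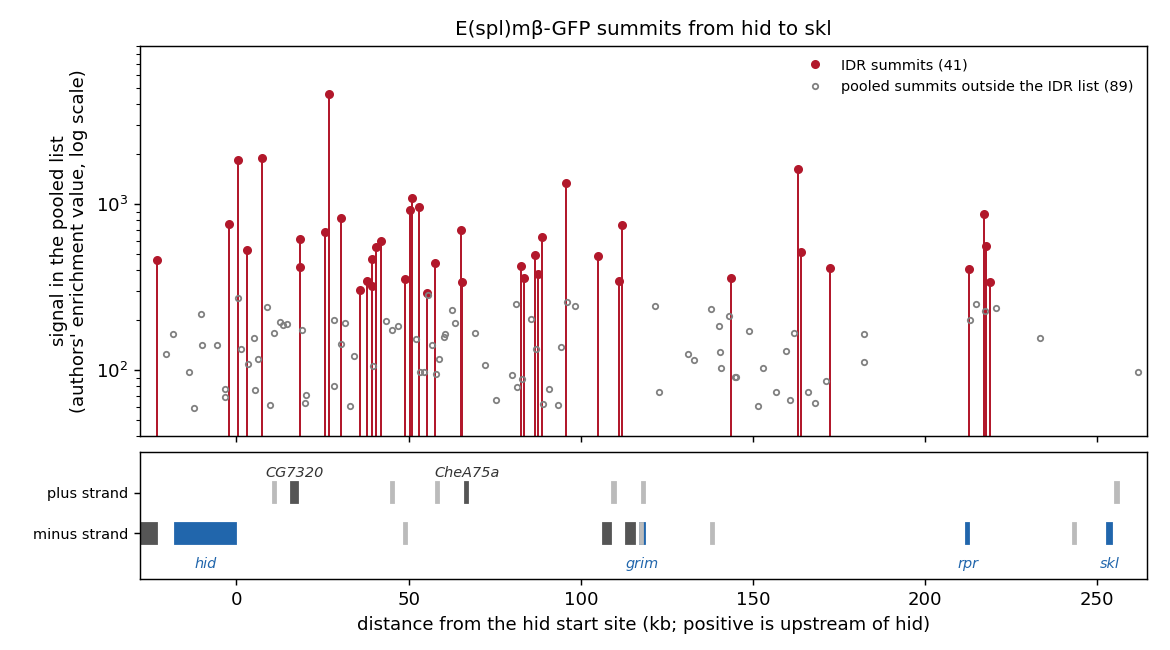
Summits from 10 kb below hid to 10 kb above skl, by distance from the hid start site (kb, x axis) and by the authors' signal in the pooled list (y axis, log scale). Filled points with stems are the 41 IDR summits, open points the 89 other pooled summits. In the gene map underneath, blue bars are hid, grim, rpr and skl, dark grey bars other protein-coding genes and light grey bars non-coding genes. IDR summits crowd between hid and grim, with the highest, 4599.4, at 26737 bp upstream of hid, and none lies near skl.

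Further summits of the hid to grim space formed groups. At chr3L:18235987, chr3L:18236604 and chr3L:18238741 the signals were 923.7, 1081.5 and 953.8, all ranking between 1229 and 2394 in the replicates. These 3 lie upstream of the non-coding RNA gene lncRNA:CR45937. Another run, from chr3L:18221516 to chr3L:18227535, was weaker, with signals of 302.8 to 595.1. Nearer to grim, the summit at chr3L:18281385 had a signal of 1335.4 and ranks 1105, 1043 and 1395 in replicates 1, 2 and 3. Protein-coding genes in this space are CG7320, CheA75a, CG5103 and CG13700, and no IDR summit lay within 1000 bp of the start site of any of them.

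grim, which encodes another short antagonist of Diap1, had no IDR summit in the gene or within 5 kb. Within 10 kb there were 2, both beyond its 3′ end, and 1 without replicate 1, without replicate 2 or with the support of all 3 replicates. The median within 10 kb was 1 for the 6517 protein-coding genes under 2 kb, of which grim is one. A replicate supports an IDR summit when the summit lies in one of its 8549 strongest peaks, and leaving out a replicate asks for the support of both others. At chr3L:18297581, 6836 bp downstream of the start site, the signal was 748.1. The replicate signals were 386.2, 192.9 and 176.9, at ranks 2342, 2452 and 4209 in replicates 1, 2 and 3. At chr3L:18296670 the signal was 345.0, with ranks 6691, 6751 and 8909 in replicates 1, 2 and 3. This weak summit has the window printed last above, in which the 8 letters of GGCACGTG stand 41.5 bp from the summit. The pooled summit nearest to the grim start site was 2896 bp upstream, at signal 243.6, below the lowest signal of the IDR list, 286.5.

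Between grim and rpr IDR summits were sparser than on the arm, and weaker peaks were not. The 93.1 kb held 4 IDR summits, or 0.43 per 10 kb, against 0.704 on the arm, and 27 pooled summits, or 2.90 per 10 kb, against 2.43. In the full lists of replicates 1, 2 and 3 the densities were 2.15, 3.44 and 3.33 per 10 kb, against 2.43, 2.39 and 2.41 on the arm, so the stretch lay below the arm in replicate 1 and above it in replicates 2 and 3. One of the 4 was strong: at chr3L:18348744, 44327 bp upstream of grim, the signal was 1628.7 and the ranks were 847, 813 and 909 in replicates 1, 2 and 3. The other 3 had signals of 516.2, 411.2 and 359.5. From the one nearest to rpr, at chr3L:18357860, to the rpr promoter there was no IDR summit for 40554 bp, the longest interval between neighbouring IDR summits of the region.

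rpr, the first of these genes to be described and the one induced in most doomed cells, had a weak summit over its start site. It was at chr3L:18398414, 21 bp inside the transcript, with signal 407.4 and rank 5859. The replicate signals were 213.9, 117.4 and 86.0, at ranks 5457, 4863 and 8946 in replicates 1, 2 and 3. It was therefore among the 8549 strongest peaks in replicates 1 and 2 and not in replicate 3. Leaving out either replicate 1 or replicate 2 ends the call of rpr as having a promoter summit.

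Other summits lay further upstream of rpr. At 4977 bp upstream, chr3L:18403412, the signal was 556.4, with replicate signals of 346.6, 144.9 and 92.0 and ranks of 2787, 3708 and 8396 in replicates 1, 2 and 3. At 6100 bp upstream, chr3L:18404535, it was 336.6, with ranks of 7818, 9368 and 7347. The first of these was higher than the summit at the start site in the IDR list, and its rank differed more between replicates than that of the second. With 4 IDR summits within 10 kb, rpr was above the median of 1 for the 6517 protein-coding genes under 2 kb. Of those genes, 634 had 5 or more, and the number with 4 or more was not counted. The rpr count was 2 without replicate 1, 3 without replicate 2 or 3, and 2 with the support of all 3 replicates.

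skl, which resembles rpr in its Diap1-binding end, had no IDR summit in the gene or within 10 kb, as had 34.5% of the protein-coding genes under 2 kb. From chr3L:18404535 to chr3L:18461213 there was none for 56678 bp, and the upper of these positions is 21271 bp upstream of skl. The summit at that upper position was strong, with signal 2189.5 and rank 501. The pooled list had 1 summit within 10 kb, 7406 bp upstream with signal 97.0, at rank 21768 of 30000. Replicate 2 alone had a summit at the start site, 4 bp upstream, at rank 7944 of its list. In replicates 1 and 3 the nearest summits were 7407 bp upstream and 9108 bp downstream. Replicate 2 had a further summit within 100 bp of that of replicate 3, at rank 19864 against rank 14009, and no position within 10 kb of skl had a summit in all 3 replicates.

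Diap1, the inhibitor that the other proteins remove, had 12 IDR summits in the gene or within 10 kb. As many or more were counted for 105 of 13945 protein-coding genes (0.753%), and for 5 of the 618 genes of 10 to 15 kb, whose median was 3. Of the 12, 8 lay in the gene itself. The strongest was at chr3L:16046168, 678 bp inside the transcript from the start site at chr3L:16046846, with signal 1629.0 and rank 858. The replicate signals were 873.3, 335.9 and 488.9, at ranks 591, 970 and 1050. It stood well above the other 7 in the gene, whose signals ran from 355.1 to 656.5.

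The start sites of Diap1 differed in what lay beside them. At chr3L:16046846, summits were found 41 bp inside and 467 bp upstream, with signals of 430.3 and 387.4. The first of these had rank 2992 in replicate 1, rank 9977 in replicate 3 and no matching summit in replicate 2, so it rests mostly on replicate 1. Its signals there were 329.6 and 76.6. The second had signals of 136.8, 109.8 and 129.5 in replicates 1, 2 and 3, at ranks 9242, 5298 and 5923. Its window, printed above, has a CACGCG site centred 10.5 bp from the summit. At chr3L:16042570 the nearest IDR summit was 626 bp upstream, with signal 656.5 and ranks 3390, 2370 and 3838. At chr3L:16050671 it was 86 bp upstream, with signal 355.1. Its replicate signals were 165.4, 104.0 and 91.2, at ranks 7447, 5673 and 8471 in replicates 1, 2 and 3. The start site at chr3L:16051034 had that same summit 277 bp inside its transcript. At chr3L:16040535 there was no IDR summit within 1000 bp, and a pooled summit 11 bp inside the transcript had signal 127.6.

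Of the 4 summits near Diap1 and outside it, none is assigned to that gene by position alone. The one at chr3L:16051922 is 888 bp upstream of the outermost Diap1 start site and 37 bp upstream of Mbs, which encodes the myosin phosphatase targeting subunit and is transcribed the other way. Its signals were 229.0, 70.8 and 103.9 in replicates 1, 2 and 3, at ranks 5005, 9000 and 7437. Those at chr3L:16054329 and chr3L:16060969, with signals of 690.2 and 796.1, lie inside Mbs. The fourth, at chr3L:16037204 with signal 891.1, lies in the 3′ untranslated region of CG5895. The summit at chr3L:16049251, inside Diap1 with signal 537.4, cannot be assigned by position either. It is 16 bp inside the start of the non-coding RNA gene lncRNA:CR43951, which is transcribed the other way. The nearest Diap1 start site is 1420 bp from it.

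**Figure D2:**
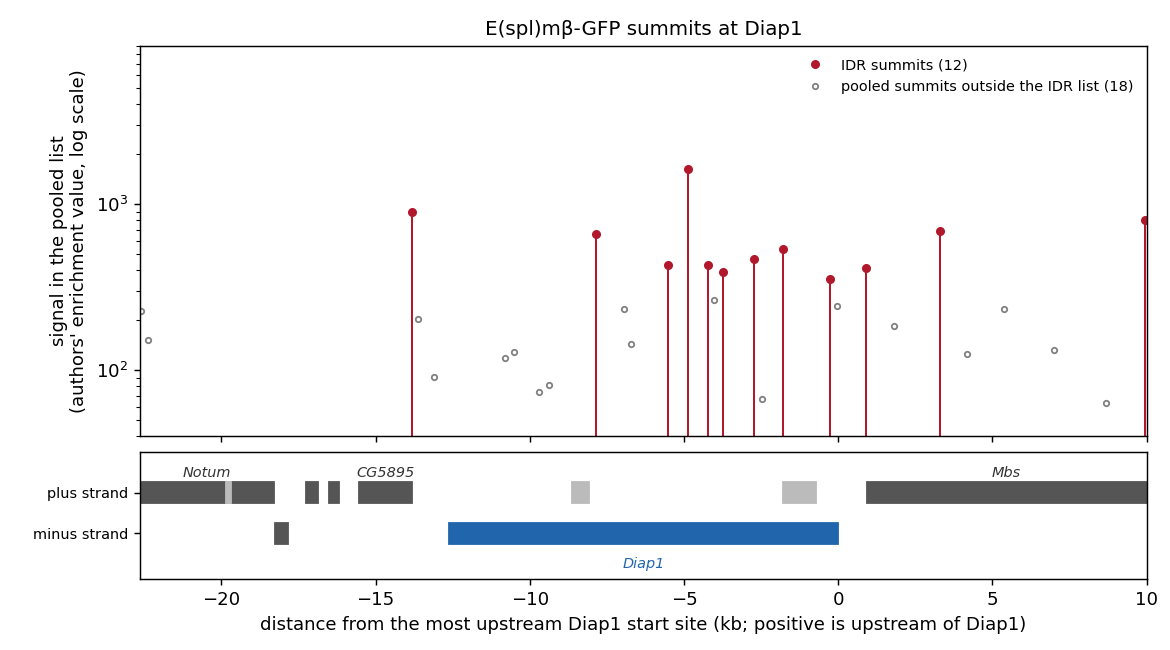
Summits within 10 kb of Diap1, by distance from its outermost start site (kb, x axis) and by the authors' signal in the pooled list (y axis, log scale). Filled points with stems are the 12 IDR summits, open points the 18 other pooled summits. The gene map shows Diap1 in blue, other protein-coding genes in dark grey and non-coding genes in light grey. The summit with signal 1629.0 stands over the middle of Diap1.

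By the common rule that a gene is bound when an IDR summit lies within 1000 bp of a start site, 3 of the 5 genes were bound, hid, rpr and Diap1, against 32.1% of all protein-coding genes. Genes with 5 or more start sites, like Diap1, were bound in 78.4% of cases, and genes with 1 start site, like hid, grim, rpr and skl, in 25.1%. In the gene or within 10 kb, 4 of the 5 had an IDR summit, against 72.5% of all protein-coding genes. With 5 genes, these shares describe the set and nothing more. Near the limit of 10 kb, the Diap1 count includes a summit 9935 bp away and leaves out one at 10894 bp with signal 418.1. The nearest left out for grim is at 12215 bp with signal 483.5. Farther out, the next IDR summit below hid lay 19141 bp from the gene, with signal 2627.9. At the edge of the IDR list, the weakest summit of the region has a signal of 291.7 and the strongest one left out 283.4.

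The region from 10 kb below hid to 10 kb above skl, 292.2 kb long, held 41 IDR summits. That is 1.40 per 10 kb, against 0.704 on arm 3L, a ratio of 1.99. When the arm was cut into 96 windows of the same length, 8 of them held 41 or more summits, the median window held 21.5 and the fullest 73. Of the 96, 79 (82.3%) held any IDR summit. The empty windows are part of the arm densities and of that median, and they lower both. The density of the region was uneven, as the values by stretch above show. Of the 41, 36 were outside every annotated gene and more than 500 bp from any protein-coding start site (87.8%), against 17.5% of all IDR summits. This share was largely set by the choice of the space between the genes, since 84.8% of the region's length is of that kind, against 32.6% of arm 3L. Per 10 kb of such length there were 1.45 IDR summits in the region, against 0.516 on the arm. At Diap1, where 3.62% of the length is of that kind, none of the 12 summits was. Median signals were 516.2 in the region and 502.2 at Diap1, against 535.3 over all IDR summits. Median peak widths were 346 bp in the region and 316 bp at Diap1, against 413 bp over the IDR list.

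**Figure D3:**
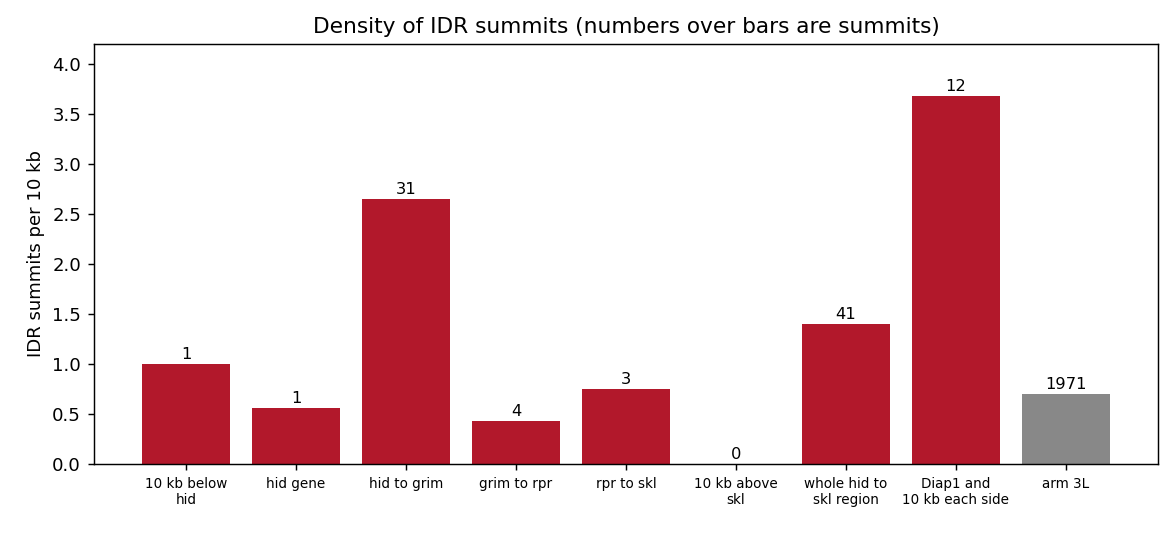
IDR summits per 10 kb (y axis, bars from 0) in stretches of the hid to skl region, in the whole region, around Diap1 and on arm 3L, with the number of summits over each bar. The genes grim, rpr and skl, each under 2 kb, have no bar. The hid to grim bar reaches 2.65 and the Diap1 bar 3.68, against 0.704 for the arm, and the grim to rpr bar 0.43.

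Most of these summits had a match in every replicate, as had most of all IDR summits. The IDR list was made from the same 3 replicates, so some agreement between them is set by the choice of list. A summit within 100 bp was present in the full lists of all 3 replicates for 48 of the 53, against 87.4% of all IDR summits. Of the 53, 38 (71.7%) lay in one of the 8549 strongest peaks of every replicate, against 67.7% of all IDR summits. Over the 48, ranks were related between replicates 1 and 2 with Spearman's rho of 0.893, between 1 and 3 with 0.733 and between 2 and 3 with 0.787. These describe neighbouring summits of 2 loci in lists made against the same control. Among the 48, the summit at chr3L:18227535 was the steadiest, at ranks 3768 to 3881. Those at chr3L:18225096 and chr3L:18251072 spread most, from 3560 to 15185 and from 5287 to 19771. Outside the 48, the summit at chr3L:18272373, with signal 491.4, had no match in replicate 1. It was the only one of the 53 that lay inside none of the 8549 strongest peaks of any replicate. Peaks of such rank stood beside it all the same. The nearest summits of replicates 2 and 3, 92 and 30 bp away, had ranks 6181 and 3437. In replicate 1 a summit at chr3L:18272492, beyond the limit of 100 bp, had rank 5743.

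**Figure D4:**
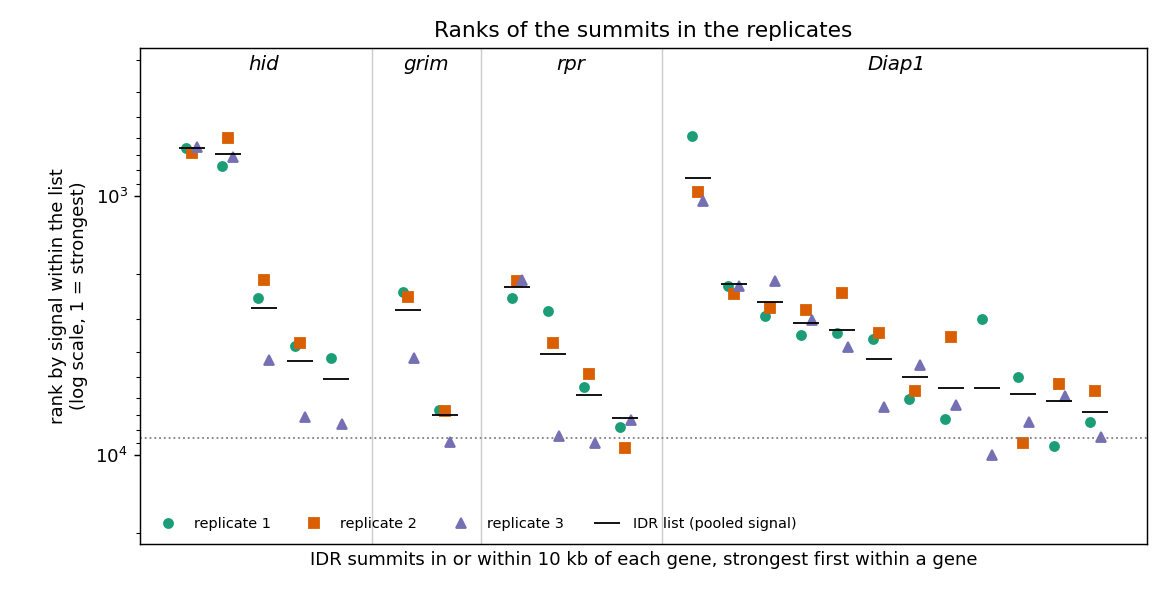
Rank by signal (y axis, log scale, 1 is the strongest) of the 23 IDR summits in or within 10 kb of hid, grim, rpr and Diap1, ordered by strength within each gene. Symbols are the 3 replicates and black dashes the IDR list; a missing symbol means no summit within 100 bp in that replicate. The dotted line is rank 8549. The strongest 2 summits of hid have replicate symbols close together, and many of the weaker summits spread.

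Sites of the kinds linked to E(spl) proteins were counted in the windows of 100 bp on each side of the summits. CACGTG was found in 1 of the 53, against 4.07% of all IDR windows and 2.47% of 15194 windows 1000 bp away from IDR summits. The same window, near grim, was the only one of the 53 with GGCACGTG, which contains CACGTG. GGCACGTG was in 1.3% of all IDR windows and 0.336% of the windows 1000 bp away. CACGCG was in 4 (7.55%), against 7.23% of all IDR windows and 4.35% of the windows 1000 bp away. The windows that held it were those in the hid intron, at the Diap1 start site chr3L:16046846, at CG13699 and at chr3L:18251072 between hid and grim. The N-box, CACNAG, was in 14 (26.4%), against 19% of all IDR windows and 22.9% of the windows 1000 bp away. Of those 14, 13 were in the hid to skl region, which holds 41 of the 53 windows. That is 31.7% of its windows, against 1 of the 12 Diap1 windows (8.33%).

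The E-box CANNTG, which contains CACGTG, was in 24 windows (45.3%), against 59.3% of all IDR windows. The GAGA factor letters GAGAG were in 10 (18.9%), against 23%, and TGGGAA, a core of the site of the Notch effector Su(H), in 4 (7.55%), against 10.4%. CAGGTAG, the site of the early activator Zelda, was in none of the 53 and in 0.994% of all IDR windows. In the windows 1000 bp away, the shares were 64.8% for CANNTG, 21.5% for GAGAG, 12.2% for TGGGAA and 1.21% for CAGGTAG. Both strands were searched, and windows of neighbouring summits can overlap. The windows of the 5 strongest summits held none of the letters marked in capitals, and their content of G and C had a median of 29.4%. The 26 windows of lowest signal had a median of 39.3%, and all IDR windows 34.8%.

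Other genes of the death pathway were taken as a list of 32, covering caspases, their adaptors and inhibitors, and stress inputs. Of these, 17 (53.1%) were bound at a start site, against 32.1% of all protein-coding genes. Among the caspases, Drice and Dcp-1, which cut the final substrates, and Dredd, which acts in immunity, were bound, while the initiator Dronc, its adaptor Dark, Strica, Damm and Decay were not. The inhibitors of apoptosis other than Diap1 were split, with Det bound and Diap2 and Bruce not. The upstream inputs p53, its kinase lok, and Corp, a negative regulator of p53, were bound, as were the TNF ligand egr, its receptor grnd and the adaptor Traf6, while the receptor wgn and the kinases hep and bsk were not. The nuclease EndoG, the mitochondrial protease HtrA2, the JNK phosphatase puc and the ubiquitin ligase Ubr3 were bound as well. Support was weakest for puc, with 1 replicate, at signal 364.8 and ranks 5055, 9411 and 12998 in replicates 1, 2 and 3. Drice and Det each had the support of 2 replicates. Of the 17 bound genes, 12 share the summit with a start site of another gene within 1000 bp, so the summit cannot be assigned to either by position. Neither of the Bcl-2 relatives Debcl and Buffy was bound, nor AIF, morgue or Fadd.

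The 6 bound genes of the list with the highest signals were as follows. The cytochrome c genes Cyt-c-d and Cyt-c-p lie side by side on arm 2L and had summits at signal 2951.5 and 2747.3, ranks 271 and 314 of the IDR list. The summit at Cyt-c-d was 350 bp inside the transcript and also within 1000 bp of CG31808, and that at Cyt-c-p was 929 bp inside, near the limit of 1000 bp. That of egr was 336 bp upstream at signal 1133.8, and those of Traf6 and Corp were 97 and 351 bp upstream at 955.7 and 831.4, the Traf6 summit being within 1000 bp of GIIIspla2 as well. eIF3m, listed as Tango7 and an activator of Dronc in some settings, had signal 800.3 at 14 bp upstream, and CG8323 lies within 1000 bp as well. The eIF3m summit had no match in replicate 1, though it had the support of all 3 replicates. In signal, the hid promoter summit at 1835.8 lay below the summits of both cytochrome c genes and above that of egr, and the rpr promoter summit at 407.4 was lower than all 6.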

How the data were processed

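Peak lists for 3 biological replicates of 1 group, for the pooled replicates and for the IDR list were used. The deposited records trace every list to dm6 alignments and a shared control. Which aligner and caller were used is not given in the sources used here. Fragments were 200 to 800 bp long, per the labels. The signal of each peak was deposited by the authors, and it was used only within a list. Summits are the peak's start plus the deposited offset, which is the other column used, printed 1-based. The IDR list was the 8549 strongest peaks of the pooled list. In replicate 1, 5 peaks off the arms were left out. Depth is unknown, since read totals are not part of these lists, and no intervals are given.

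Start sites came from Ensembl release 115. A promoter summit lies within 500 bp of a protein-coding start site, and an intergenic one lies outside every annotated gene and is not a promoter summit. A replicate summit matched within 100 bp. Python 3.11.15, pandas 2.3.3, numpy 2.4.6 and matplotlib 3.10.9 were used, and the counting of summits, support and motifs was tested on simulated data. With 1 group no test was made. The text names the 5 genes, annotated genes of their loci and the pathway list, with values for its 6 bound genes of highest signal; genes and lists were chosen with earlier results of these data known. In the list, debcl and Tango7 were matched as Debcl and eIF3m. Alternatives were other distances, stricter or longer lists, replicate support, merged peak intervals, other window sizes and leaving out each replicate. A sequence withheld from this text, and the summit it belongs to, are not reported here.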

Additional observations from a re-analysis of the deposited data

How the results depend on the processing

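Which of the 5 genes were called bound depended on rpr. With the strongest 4274 IDR peaks, with support of all 3 replicates, and without replicate 1 or replicate 2, hid and Diap1 were bound and rpr was not, giving 2 of 5; without any single replicate the count ran from 2 to 3. The summits in or within 10 kb of the 5 genes numbered 23 in the IDR list and 12 among the strongest 4274 peaks, and 17 to 19 when each replicate was left out. For single genes, the strongest 4274 peaks left 2 summits for rpr, 3 for hid, 1 for grim and 6 for Diap1, and within 5 kb grim had 0 and hid 3. The pathway genes bound were 17, against 11 among the strongest 4274 peaks and 14 to 16 when each replicate was left out. The density of the hid to skl region was 1.4032 summits per 10 kb in the IDR list, 0.6502 among the strongest 4274 peaks, 4.449 in the pooled list, and 4.0726, 4.8939 and 4.7913 in the lists of replicates 1, 2 and 3; it ran from 1.0609 to 1.1294 when each replicate was left out. Lists of other lengths give other densities, and the ratio to arm 3L was 1.91 among the strongest 4274 peaks, 1.83 in the pooled list and 1.68, 2.04 and 1.99 in replicates 1, 2 and 3, so the region was above the arm in each. Motif counts moved with window size. With 50 bp on each side, CACNAG was in 7 of the 53 windows, CANNTG in 13, GAGAG in 6 and TGGGAA in 0, against 14, 24, 10 and 4 with 100 bp. With 150 bp, CACGTG and GGCACGTG were each in 2, GAGAG in 16 and TGGGAA in 7. Shares of all IDR windows at these sizes were not computed. Leaving out a replicate keeps only the IDR peaks with the support of both others, so a count made this way cannot exceed that of the IDR list. Each such set still depends on all 3 replicates. Unknown depth limits what the absence of a summit at skl or at the grim start site can show. No paired analysis was possible because there is 1 group and no result comes from a test.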
